A study of Homo sapiens with 6 samples.

Results

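Cytosolic ribosomal protein genes were measured in OCI-AML3 cells, a human acute myeloid leukaemia line, given Vorinostat or its solvent DMSO. The genes were those with a probe set of their own whose symbol is RPL or RPS followed by digits and an optional A, L or X, or is RPLP0, RPLP1, RPLP2 or RPSA. Kinases, pseudogenes, antisense genes and RPS4Y genes were left out. This gave 56 genes of 19775 genes with a probe set of their own, 35 of the large and 21 of the small ribosomal subunit. RefSeq lists 81 protein-coding genes that match these symbols, and the other 25, among them RPLP0, RPSA, RPL5 and RPL10, were not analysed here. Where a gene had several probe sets, the one brightest on average across the arrays was used.

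There were 6 arrays, 3 from cells given DMSO and 3 from cells given 1 μM Vorinostat, an inhibitor of histone deacetylases, each for 24 h. Both groups are the same single cell line, so they stand for 1 genetic background. In both groups the samples are numbered 1, 2 and 3. Whether each number was a culture of its own is not given in the sources used here, and every p-value below therefore covers the spread among these 6 arrays alone, which may be technical. Values are on the log2 scale per probe set, as the authors deposited them. The arrays read RNA of whole cultures, so fewer cells with a transcript and less transcript per cell cannot be told apart. Precision is limited by having 3 arrays in a group.

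The cytosolic ribosome makes the proteins of the cell from a small subunit that reads the messenger RNA and a large subunit that joins the amino acids. Each subunit is built in the nucleolus from ribosomal RNA and its proteins in equal amounts, and the genes of these proteins are usually expressed together. Their messenger RNAs are abundant in growing cells and typically begin with a C and a run of pyrimidines, through which growth signals control their translation.

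To show this shared start, the bases around the annotated start of transcription are given for 6 genes described later and for 2 divergent copies, RPS27L and RPL10L. Each sequence covers 10 bases before to 20 bases from the start, on the strand that reads as the messenger RNA does (RefSeq, GRCh38.p14). Capitals mark the longest unbroken run of C and T of at least 5 bases that begins within 5 bases of the annotated start.
RPS25, chr11:119018324-119018353, minus strand: gcagcgCTTCCTTTTTgtccgacatcttga
RPL39, chrX:119791611-119791640, minus strand: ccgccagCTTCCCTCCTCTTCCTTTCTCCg
RPS6, chr9:19380217-19380246, minus strand: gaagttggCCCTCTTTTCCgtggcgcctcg
RPLP1, chr15:69452808-69452837, plus strand: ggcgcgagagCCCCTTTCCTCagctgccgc
RPS9, chr19:54200848-54200877, plus strand: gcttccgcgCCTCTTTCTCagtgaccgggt
RPS27, chr1:153990752-153990781, plus strand: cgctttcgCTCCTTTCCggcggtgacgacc
RPS27L, chr15:63157458-63157487, minus strand: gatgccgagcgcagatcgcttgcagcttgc
RPL10L, chr14:46651762-46651791, minus strand: gtagttaagagagcgcattttgacttcgag

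Such a run was found in 37 of 55 start windows of the 48 genes with an entry, against 24.3% of all 35116 windows. The first transcribed base was C in 37 of the 55, against 14.7% of all. The letters CTTT, which overlap the run in most cases, stood in the 30-base window of 35 of the 55, against 12.5% of all. Their reverse complement AAAG stood in 3, against 9.64%. RPS27L and RPL10L had no such run at the annotated start. The same held for RPL6, RPL14, RPL19, RPL24, RPL27, RPL29, RPL37A, RPS7, RPS10, RPS15 and RPS29, so lacking it was not particular to the divergent copies. The 56 genes lie on 19 chromosomes, with 7 of them on chromosome 19 and 6 on chromosome 3. These are descriptions of the annotated sequence and were not measured on the arrays.

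The level of the ribosomal protein genes differed more by replicate number than by treatment. Their median log2 value was 10.89 on DMSO array 1, 8.73 on DMSO array 2 and 8.68 on DMSO array 3. With Vorinostat it was 10.97 on array 1, 6.51 on array 2 and 8.17 on array 3. Both number 1 arrays were thus the highest, and Vorinostat array 2 stood alone as the lowest. Vorinostat array 2 was the lowest of the 6 arrays for 50 of the 56 genes, which held for 21.5% of all genes. Both number 1 arrays lay above the other 4 for 50 of the 56, against 32.1% of all genes. The median ribosomal protein gene nevertheless stood at the 99.8th percentile of the probe sets on each of the 6 arrays.

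The signal of the arrays differed in the same way beyond these genes. The number 1 arrays had 8645 and 8158 probe sets with a log2 value above 3, and the other 4 arrays had 2761 to 3731. Array medians over all probe sets lay between 1.55 and 1.66. The other 44 genes with a mean above 8, a level chosen after the values were seen, had medians of 10.52, 8.5 and 8.44 on DMSO arrays 1, 2 and 3 and of 10.5, 6.14 and 7.94 with Vorinostat. Of the markers of the labelled cell type, LYZ and CEBPA had a mean above 3 and MPO, SPI1 and ANPEP did not. The other listed markers, CD33 and HOXA9, were not measured here. No measured T cell, B cell, erythroid, fibroblast or epithelial marker had a mean above 3. On single arrays, however, CD79A reached 4.09, COL1A2 4.98, COL3A1 3.46 and CDH1 3.92.

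**Figure D1:**
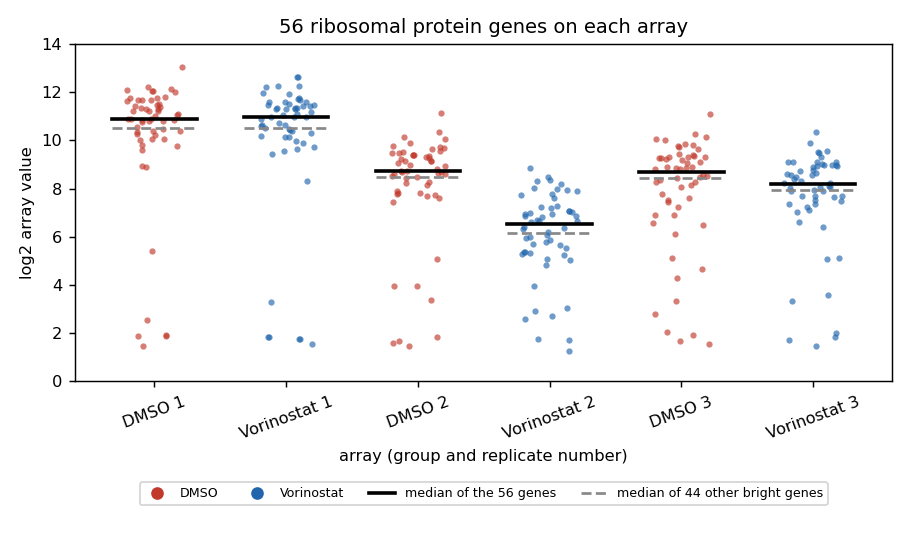
Log2 array values of the 56 ribosomal protein genes on each of the 6 arrays, 1 point per gene, red for DMSO and blue for Vorinostat. Black lines are the medians of the 56 genes, from 6.51 on Vorinostat array 2 to 10.97 on Vorinostat array 1, and grey dashed lines are the medians of 44 other genes with a mean above a log2 value of 8, which follow the same steps.

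In a limma fit with treatment as a term, the replicate number changed 10 of the 56 genes at an adjusted p under 0.05 (F test, Benjamini-Hochberg over all probe sets), against a background of 13.2% of all genes. At an unadjusted p under 0.05 there were 47 of the 56, against 32.8% of all genes. The 10 were RPL3, RPL7, RPL38, RPS6, RPS7, RPS9, RPS14, RPS23, RPS27 and RPS27L, and each was highest in number 1. RPS9, a protein of the small subunit near the entry of the messenger RNA, had means of 9.22, 3.50 and 4.68 over the 2 arrays of numbers 1, 2 and 3 (adjusted p = 0.0142). After quantile normalisation, which gives all arrays the same distribution, 0 of the 56 passed the adjusted p and 15 the unadjusted p, against 22.8% of all genes. As deposited, leaving out DMSO arrays 1, 2 and 3 in turn gave 1, 44 and 1 of the 56 genes at the adjusted p, against 5.06%, 13.1% and 6.16% of all genes. Leaving out Vorinostat arrays 1, 2 and 3 in turn gave 0, 33 and 2, against 6.55%, 10.8% and 7.95% of all genes. The count thus depended on which array was left out, and was high without either number 2 array.

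With Vorinostat, 53 of the 56 genes had a lower mean than with DMSO, against 53.1% of all genes, but none passed the unpaired test. The median difference was -0.81 log2 units over the 56 genes and -0.02 over all genes. The differences ran from -1.73 for RPS25 to 0.28 for RPL3L, and 15 genes were lower by over 1 log2 unit. Large and small subunit genes were alike in this, with medians of -0.73 and -0.83. By limma, 0 of the 56 passed an adjusted p under 0.05 (background 0%), and 0 passed an unadjusted p under 0.05 in either direction (background 0.389% lower and 0.602% higher). None was past 2-fold with an unadjusted p under 0.05, the threshold of the study (background 0.0961%). The lowest unadjusted p was 0.171. The methods' t-test also gave 0 before and 0 after adjustment. Both tests left out the replicate number, and a fit with it as a block is given below. The study lists 1 member, RPS15A, as increasing. Here it differed by -0.80 (unadjusted p = 0.518 from limma), and its dim other probe sets by 0.25 and -0.12. The groups overlapped for all 56 genes. Of all genes, 1.95% had every Vorinostat array below every DMSO array and 2.3% the reverse. For 50 of the 56 both number 1 arrays lay above the other 4, so their groups had to overlap. The overlap therefore says little about the treatment and does not set the family apart. The typical spread among the genes with a mean above 3 was an SD of 1.3 over the DMSO arrays and 2.21 over the Vorinostat arrays (medians, n = 3), each larger than the median difference. Both SDs include the differences between replicate numbers.

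The lower means came almost wholly from replicate number 2. The median difference of the 56 genes was -0.06 in number 1, -2.20 in number 2 and -0.33 in number 3. In number 1, 29 genes were lower and 27 higher, and in number 3, 43 were lower and 13 higher. In number 2, 53 were lower, 49 of them by over 1 log2 unit. The 3 exceptions were RPL27A, RPL3L and RPL10L, chosen here after their values were seen. All 3 were dim, with means of 3.92, 1.85 and 1.83 over the 6 arrays, and had little room to fall. The 44 other genes with a mean above 8 had medians of 0.01, -2.25 and -0.47 in the same 3 numbers. The 44 ribosomal protein genes above that level had 0.04, -2.26 and -0.41. Without Vorinostat array 2 the median difference of the 56 genes was 0.18 log2 units, and without both number 2 arrays it was -0.13. Without DMSO array 1 it was -0.05 and without Vorinostat array 1 it was -1.95.

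Quantile normalisation removed most of the difference. It gives all arrays the same distribution, and the median member stood at the 99.8th percentile on each array. That holds the family median nearly fixed, at 8.78 to 9.08 on the 6 arrays, so a change shared by the family would largely be removed as well. The values on this scale therefore do not show whether the family as a whole changed. The median was then -0.06 log2 units, with 32 genes lower and 24 higher, and it was -0.02, -0.31 and 0.06 in numbers 1, 2 and 3. Of the 53 genes lower in the deposited values, 21 became higher. At an unadjusted p under 0.05, 3 genes were lower (background 1.18%) and 0 higher (background 0.996%), and none passed an adjusted p. The part of the brightness of the arrays in the deposited difference was not tested.

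**Figure D2:**
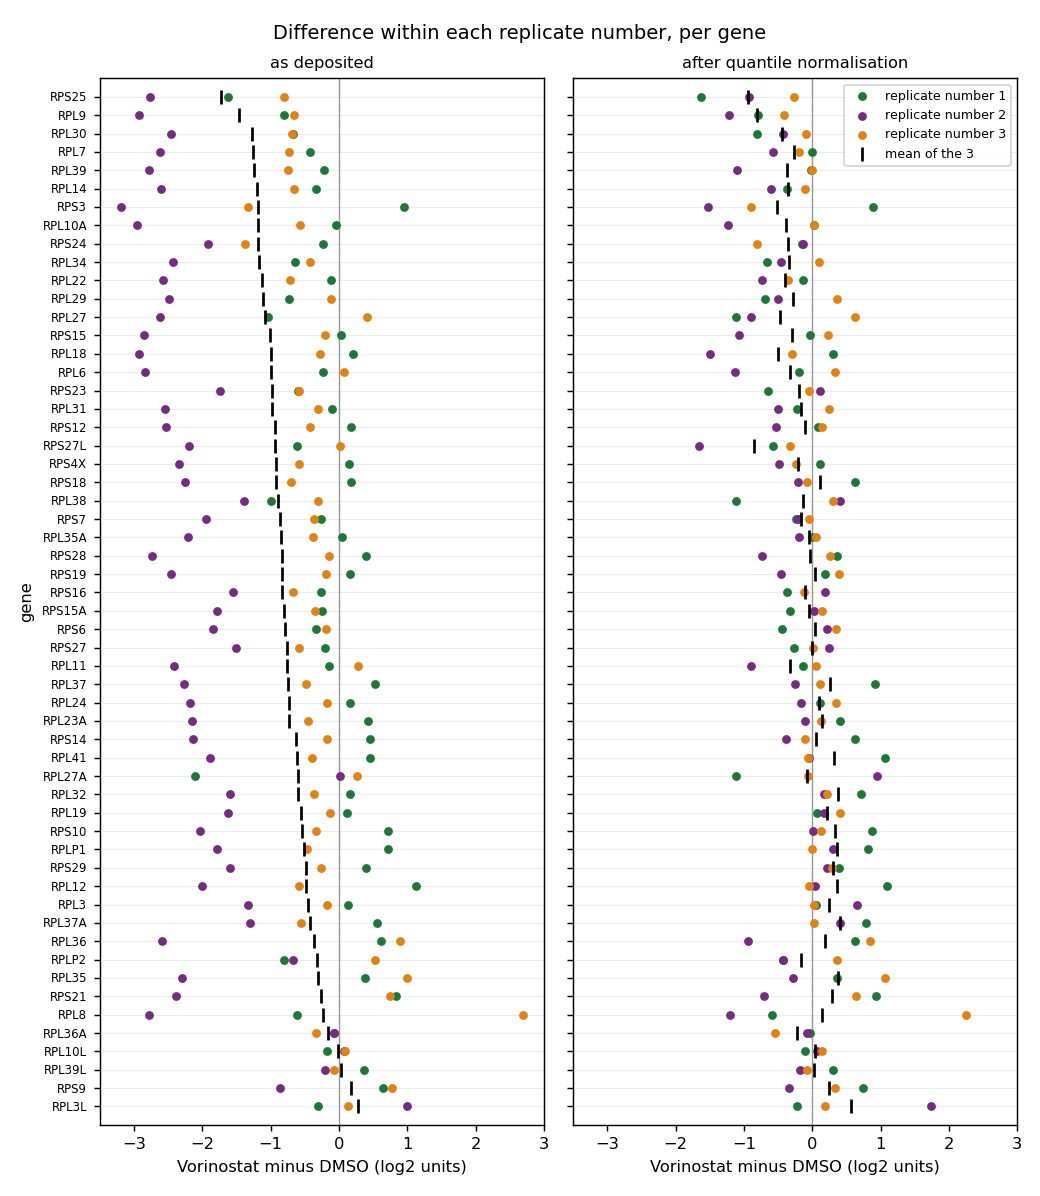
Vorinostat minus DMSO in log2 units for each of the 56 genes within replicate numbers 1 (green), 2 (purple) and 3 (orange), with the mean of the 3 as a black tick, as deposited (left) and after quantile normalisation (right). On the left 53 purple points lie below 0 with a median of -2.20, and on the right the median of number 2 is -0.31.

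Within each replicate number, 20 of the 56 genes were lower with Vorinostat and 0 were higher, against 13.7% and 13% of all genes. Among genes with a mean above 8, 43.2% of the members and 45.5% of the other 44 were lower in each number. The share was thus not particular to this family at that level. As number 2 was lower for nearly every member, the count of 20 rests on numbers 1 and 3. In numbers 2 and 3 alone, 43 genes were lower in both, against 25.4% of all genes. Without both number 1 arrays, 10 were lower at an unadjusted p under 0.05 in limma without the block (background 2.45%), and without Vorinostat array 1 alone 4 were (background 0.991%). After quantile normalisation 9 were lower in each number and 6 higher, against 13.1% and 14.6% of all genes. Above the mean of 8, 15.9% of the members and 29.5% of the other 44 genes were then lower in each number. The 8 genes lower in each number on both scales were RPL9, RPL14, RPL22, RPL30, RPL36A, RPS7, RPS24 and RPS25. The share of all genes lower in each number on both scales was not counted, so these 8 are not set apart from other genes by this. With the replicate number as a block, 7 genes were lower at an unadjusted p under 0.05 in limma (background 3.12%) and 0 were higher (background 2.25%), and 4 of them, RPL9, RPL30, RPS24 and RPS25, were also past 2-fold, the threshold of the study (background 0.829%). The other 3 were RPL38, RPS16 and RPS23. None passed an adjusted p with the block, where the lowest was 0.887.

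RPS25, a protein of the small subunit that some viral messenger RNAs need for internal initiation, had the most negative difference. Its log2 values were 11.51, 8.74 and 8.88 on DMSO arrays 1, 2 and 3 and 9.89, 5.97 and 8.08 on Vorinostat arrays 1, 2 and 3. It was lower in each number, by -1.62, -2.77 and -0.80, yet the groups overlapped because Vorinostat array 1 lay above DMSO arrays 2 and 3. The means were 9.71 ± 1.56 and 7.98 ± 1.96 (SD, n = 3), a difference of -1.73 (standard error 1.25, unadjusted p = 0.219 and adjusted p = 1 from limma). With the block the unadjusted p was 0.0121. After quantile normalisation the difference was -0.94 (standard error 0.318, unadjusted p = 0.0278 and adjusted p = 1 from limma). RPS25 is read here by 1 probe set, so no other probe set can be set beside it.

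RPL9, RPL30 and RPS24, described here after their values were seen, also had the same sign in each number on both scales. RPL9, of the large subunit, had 11.11, 8.29 and 7.77 with DMSO and 10.31, 5.37 and 7.11 with Vorinostat, a difference of -1.46 (standard error 1.53, unadjusted p = 0.382 from limma). RPL30 differed by -0.68, -2.46 and -0.69 in numbers 1, 2 and 3, and RPS24, whose mutation causes Diamond-Blackfan anaemia, by -0.24, -1.92 and -1.38. For RPL30 and RPL22 the unadjusted p after quantile normalisation was 0.0429 and 0.0446.

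RPL39, a very small protein at the exit tunnel of the large subunit, had 12.15, 11.15 and 11.10 with DMSO and 11.94, 8.37 and 10.35 with Vorinostat. The difference was -1.25 (standard error 0.937, unadjusted p = 0.236 from limma), of which number 2 gave -2.78. After quantile normalisation RPL39 differed by -0.02, -1.10 and 0.00, so only number 2 showed a difference on that scale. RPS23, a protein of the decoding centre, had 12.06, 10.07 and 10.14 with DMSO and 11.46, 8.33 and 9.55 with Vorinostat. Its unadjusted p was 0.354 without the block and 0.0236 with it, and after quantile normalisation the difference was -0.20. RPL29 and RPL34 had differences of -1.11 and -1.17, with unadjusted p of 0.274 and 0.312 from limma.

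The acidic stalk of the large subunit, which recruits the translation factors that use GTP, is built from RPLP0, RPLP1 and RPLP2. RPLP1 had 10.86, 8.64 and 8.48 with DMSO and 11.58, 6.86 and 8.01 with Vorinostat. It was higher with Vorinostat in number 1, by 0.72, and lower in the other numbers, by -1.78 and -0.47, so its sign depended on the number. The probe set of RPLP2 had values of 1.75 to 3.38 only, close to the array medians, so the size of its difference of -0.32 is poorly measured. RPS6, the small subunit protein that S6 kinases phosphorylate, had 11.77, 8.82 and 8.80 with DMSO and 11.44, 6.97 and 8.60 with Vorinostat, with differences of -0.33, -1.85 and -0.19. Both other bright probe sets of RPS6 were lower in each number as well, with mean differences of -1.13 and -0.70.

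Genes tied to disease or to p53 showed the same steps. RPL11, which binds 5S RNA and MDM2 together with RPL5, had 9.80, 7.45 and 6.11 with DMSO and 9.66, 5.03 and 6.40 with Vorinostat. RPS19, the gene most often mutated in Diamond-Blackfan anaemia, had 11.35, 9.74 and 9.17 with DMSO and 11.51, 7.28 and 8.98 with Vorinostat. RPS14, lost in the myelodysplastic syndrome with a deletion of chromosome arm 5q, had 11.22, 7.91 and 7.22 with DMSO and 11.67, 5.77 and 7.04 with Vorinostat. For these 3 genes the differences in number 2 were -2.42, -2.46 and -2.14, while those in numbers 1 and 3 lay between -0.19 and 0.45. The unadjusted p was 0.634, 0.518 and 0.751 from limma.

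Of the short and structural members, RPL41, RPL37A and RPL32 were lower in numbers 2 and 3 and higher in number 1. RPL41, which encodes a very short peptide, had 12.20, 10.35 and 10.28 with DMSO and 12.65, 8.46 and 9.88 with Vorinostat. The differences of RPL41, RPL37A and RPL32 were -0.61, -0.43 and -0.60 as deposited and 0.32, 0.41 and 0.37 after quantile normalisation, so their direction flipped with the scaling. RPL3, which lies near the peptidyl transferase centre, went from -0.46 to 0.24 in the same way.

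The copies with an L suffix did not all share the pattern. RPL3L, RPL10L and RPL39L, which are known for expression in striated muscle or testis, had values of 1.56 to 2.59, 1.66 to 2.00 and 1.27 to 1.82, close to the array medians, on all arrays. RPL3L, the most positive of the 56 at 0.28, owed that to its 2.59 on Vorinostat array 2 and had -0.30, 1.00 and 0.13 in the 3 numbers. RPL36A, whose probe set had 1.71 to 2.04, was as low, and its difference of -0.16 with the lowest unadjusted p of the family, 0.171, is poorly measured. RPS27L, a copy of RPS27 that p53 induces, was well above the array medians, with 8.93, 5.09 and 5.12 with DMSO and 8.32, 2.90 and 5.13 with Vorinostat. RPS27 had 11.66, 9.51 and 9.30 with DMSO and 11.45, 8.02 and 8.72 with Vorinostat. The difference in number 2 was -2.19 for RPS27L and -1.50 for RPS27 as deposited, and -1.66 and 0.24 after quantile normalisation.

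When each difference was set against the median of the 56 genes in the same number, a step added after the values were seen, 8 of the 51 genes with a mean above 3 lay under that median in each number and 7 lay over it. RPS25 lay furthest under it, by -1.56, -0.57 and -0.48 in numbers 1, 2 and 3, followed by RPL9 with -0.74, -0.72 and -0.33. The others under it were RPL7, RPL14, RPL22, RPL30, RPL34 and RPL39. RPS9 lay furthest over it, by 0.71, 1.33 and 1.10. Its log2 values were 8.90, 3.94 and 4.29 with DMSO and 9.55, 3.06 and 5.07 with Vorinostat. On DMSO arrays 2 and 3 it was far dimmer than the family medians of 8.73 and 8.68. It had less room to fall there, so its position in numbers 2 and 3 is poorly measured. A second probe set of RPS9 with a mean of 3.94 had differences of 0.11, -1.19 and 1.31. The other genes over the median were RPL3, RPL19, RPL24, RPS10, RPS14 and RPS29. A set of genes centred on its own median has members on each side of it. How many would lie on the same side in each number by sign alone was not computed. These positions carry no test.

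**Figure D3:**
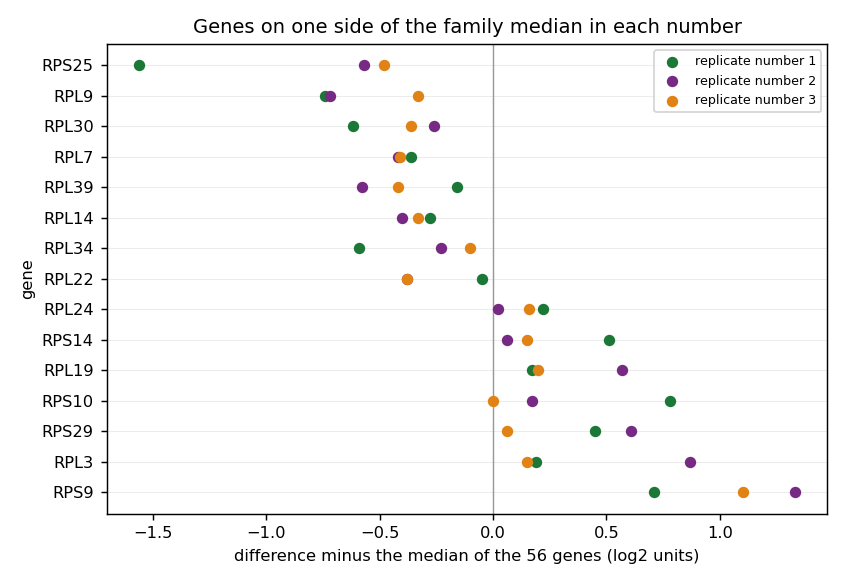
Difference of each gene (Vorinostat minus DMSO) minus the median difference of the 56 genes in the same replicate number, in log2 units, for the 15 genes that lay on the same side in all 3 numbers. RPS25 at the top lies at -1.56, -0.57 and -0.48 and RPS9 at the bottom at 0.71, 1.33 and 1.10.

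Single genes stood out within 1 number. RPL8, a core protein of the peptidyl transferase region, had 10.06, 7.83 and 4.67 with DMSO and 9.45, 5.06 and 7.36 with Vorinostat, so it differed by -0.61, -2.78 and 2.69. The 4.67 on DMSO array 3 was the lowest of its 6 values. RPL35, RPL36 and RPS21 were also higher with Vorinostat in number 3, by 0.99, 0.90 and 0.75. RPS3, which lies at the entry of the messenger RNA, was higher by 0.95 in number 1 and lower by -3.19 and -1.33 in numbers 2 and 3. RPL27A had a difference of -2.11 in number 1 and of 0.02 and 0.27 in numbers 2 and 3. Its probe set was dim for this family, with values of 3.28 to 5.39. It had little room to fall in numbers 2 and 3, so these differences are poorly measured. These genes were named after their values were seen.

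Different probe sets of a gene mostly gave the same sign. The 56 genes had 117 probe sets of their own and 34 genes had more than 1. Of the 61 probe sets that were not used above, 28 had a mean above 3, and 27 of these had the sign of the probe set used for their gene. Their medians were -0.05, -1.82 and -0.32 in numbers 1, 2 and 3, and 26 of the 28 were lower in number 2. Of the other genes with a mean above 8, 97.7% were lower with Vorinostat as well. A shared sign of 2 bright probe sets therefore says little about a gene. By limma, 2 of all 61 passed an unadjusted p under 0.05, against 0.998% of all probe sets, and neither passed an adjusted p. A probe set of RPL31 had a difference of -0.62, and a dim one of RPS28 had 0.59. RPL38 departed from the family in another way, since its 2 other probe sets had -2.17 and -3.31 in number 1 and 0.49 and 0.09 in number 2. By the suffix of their names, 15 of the 56 probe sets used can bind transcripts of other genes and 28 can bind several transcripts of a gene family, so near-identical copies may share their signal.

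No other gene of translation listed here passed an adjusted p. In number 2 the medians of mitochondrial ribosomal proteins, translation factors, ribosome biogenesis genes and translation regulators were -0.59, -1.48, -0.50 and -0.83 as deposited, closer to 0 than the -2.20 of the cytosolic ribosomal proteins. After quantile normalisation that order turned, with -0.58, -0.73, -0.54 and -0.47 against -0.31. Of 72 mitochondrial ribosomal protein genes, 52 were lower, 1 of them at an unadjusted p under 0.05, and their median was -0.29, with -0.34, -0.59 and 0.12 in numbers 1, 2 and 3. Of 42 translation factor genes, 34 were lower and 0 passed an unadjusted p, with medians of -0.13, -1.48 and 0.23. EIF3M, which the study lists as decreasing, had a difference of -0.37 here (unadjusted p = 0.848 from limma). EEF1A1, the elongation factor that brings aminoacyl-tRNA to the ribosome, had 12.55, 11.27 and 11.11 with DMSO and 12.76, 10.41 and 10.19 with Vorinostat. Of 37 ribosome biogenesis genes, 25 were lower, and 1, NOP14, was lower at an unadjusted p under 0.05 (a difference of -1.26, standard error 0.455, adjusted p = 1 from limma), a call it lost with the replicate block. Of 9 translation regulators, 8 were lower and 0 passed an unadjusted p. With the replicate block, the genes lower at an unadjusted p under 0.05 were 10 mitochondrial ribosomal proteins, 3 translation factors, 3 ribosome biogenesis genes and 1 translation regulator, MTOR, and 0 were higher. MYC, which drives ribosome production and like EEF1A1 was picked after its values were seen, had 6.86, 5.30 and 5.72 with DMSO and 8.06, 3.60 and 5.21 with Vorinostat.

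The 5 measured ribosomal genes outside the symbol rule, FAU, RPL7L1, RPL22L1, RPL26L1 and RPL36AL, had a median of -2.13 in number 2 and of 0.35 and 0.17 in numbers 1 and 3. RPL26L1 differed by -0.05 in number 2, the smallest of the 5. The 11 housekeeping genes measured were all lower, with medians of 0.02, -1.70 and -0.24, and 0 passed an unadjusted p, or 1, HPRT1, with the replicate block. PGK1, which the study lists as decreasing, had a difference of -0.66 here (unadjusted p = 0.633 from limma). The lists differ in how many of their genes are bright, with 51 of 56 cytosolic and 48 of 72 mitochondrial ribosomal protein genes above a mean of 3. No difference between the lists was tested.

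**Figure D4:**
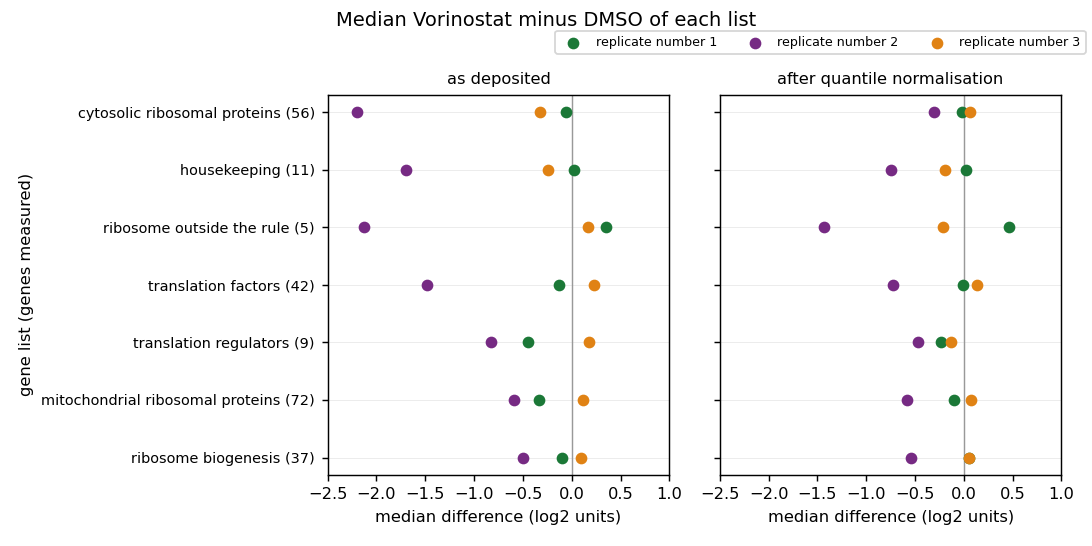
Median Vorinostat minus DMSO in log2 units of each gene list within replicate numbers 1 (green), 2 (purple) and 3 (orange), as deposited (left) and after quantile normalisation (right), with the number of genes measured in brackets. The purple point of the cytosolic ribosomal proteins stands at -2.20 on the left and -0.31 on the right, and that of the mitochondrial ones at -0.59 and -0.58.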

How the data were processed

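Affymetrix HG-U133 Plus 2.0 microarrays were hybridised with RNA of 3 DMSO and 3 Vorinostat samples. The log2 values used here are those of the series table that the authors deposited, which they made in Partek Genomics Suite from the array files. MAS5 and RMA are named in the submitters' processing notes, but what each was used for is not. The log2 scale was read from the values (0.868 to 13.8), whose upper percentiles differ between arrays, so the table is not quantile normalised across them.

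Groups and replicate numbers came from the sample titles. Of 54675 probe sets, 62 controls were left out and 54613 tested with limma (version 3.58.1, R 4.3.3), checked on simulated data, with Benjamini-Hochberg adjustment over all of them. Of these, 41091 name 1 gene, 1801 several and 11721 are unnamed here, and 64 that name a matching gene among several were not used. Backgrounds are over 19775 genes, 1 probe set each. No list of genes was tested as a set. An exact two-sided permutation test with 3 arrays a group reaches 0.1 at the lowest and was not used.

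The members and lists were chosen with earlier results of these data known. Genes described array by array were the 5 with the smallest unadjusted p in each direction (only 3 were higher), the 5 with the highest and the 5 with the lowest mean, and genes chosen by role, and others are marked as chosen after their values were seen. Same-numbered arrays deviated together from their group means (correlations over all probe sets of 0.874, 0.599 and 0.672 for numbers 1, 2 and 3, each above 0.1). The deviations within a group cancel out, and number 1 was far brighter in both groups. Positive values for numbers 2 and 3 are therefore partly built in. Correlations between arrays of different numbers were not computed, so these values do not show that numbers 2 and 3 were matched. The numbers were treated as pairs only in the differences within a number and in the fits with the replicate block. The main limma test and the methods' t-test were unpaired. Promoter windows of 300 bases came from RefSeq, and 48 of the 56 genes had one.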

Additional observations from a re-analysis of the deposited data

How the results depend on the processing

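With 3 arrays a group and a spread of over 1 log2 unit, only large differences could be called, and genes near the array medians are poorly measured. No ribosomal protein gene passed an adjusted p under 0.05 from limma in any setting, and none was higher at an unadjusted p under 0.05 except 1 with quantile normalisation and the replicate block together, where 2 were lower. Genes lower at an unadjusted p under 0.05 numbered 0 as deposited, 3 after quantile normalisation, 7 with the replicate block and 0 to 10 with arrays left out (4 without Vorinostat replicate 1 and 10 without both number 1 arrays). Those past 2-fold as well numbered 0, 4 with the replicate block and 0 to 9 with arrays left out. Genes lower in each number went from 20 to 9 after quantile normalisation and 20 to 43 with both arrays of a number left out. With single arrays left out this count has no value. The median difference lay between -1.95 and 0.18 with arrays left out, against -0.81. The replicate number effect went from 10 genes to 0 after quantile normalisation, 43 with only probe sets above a mean of 2, 15 with median centring and 0 to 44 with single arrays left out, namely 1, 44 and 1 without DMSO replicates 1, 2 and 3 and 0, 33 and 2 without Vorinostat replicates 1, 2 and 3. The cause was not tested. The combined setting and the fits of the number effect without single arrays were added after seeing the data. The replicate block also raised the genes lower at an unadjusted p under 0.05 from 1 to 10 among mitochondrial ribosomal proteins, from 0 to 3 among translation factors, from 1 to 3 in ribosome biogenesis (NOP14 lost, and PES1, RIOK2 and POLR1A gained) and from 0 to 1 among translation regulators and housekeeping genes each.

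Of 22 genes described by the rule, 15 changed sign in at least 1 of 15 settings. After quantile normalisation RPL10L had 0.04, RPL3 0.24, RPL32 0.37, RPL37A 0.41, RPL41 0.32, RPLP1 0.36, RPS14 0.05, RPS19 0.04 and RPS6 0.04. With arrays left out the differences ranged from -0.10 to 0.08 for RPL10L, -2.08 to 0.25 for RPL11, -1.83 to 0.62 for RPL3, -1.74 to 0.30 for RPL32, -1.37 to 0.20 for RPL37A, -0.14 to 0.16 for RPL39L, -0.08 to 0.57 for RPL3L, -1.77 to 0.32 for RPL41, -1.89 to 0.47 for RPLP1, -0.74 to 0.10 for RPLP2, -2.38 to 0.59 for RPS14, -1.96 to 0.16 for RPS19, -2.36 to 0.35 for RPS27L, -2.01 to 0.23 for RPS6 and -1.64 to 1.78 for RPS9. RPS25 was negative in all settings, with -2.69 to -0.73 when arrays were left out.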
